A study of Rattus norvegicus with 55 samples.

Results

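Slc22a2, Slc22a6 and Slc22a7 encode carriers that take organic cations and organic anions out of the blood or the tubular fluid. Every probe set annotated to one of these genes was followed across rat kidney. They are 3 of the 4737 genes named on the array, read by 4 of its 8799 probe sets. Slc22a2 (organic cation transporter OCT2) is read by D83044_at, Slc22a6 (organic anion transporter OAT1) by AB004559_at, and Slc22a7 (organic anion transporter OAT2) by L27651_at and L27651_g_at. All 4 passed the filter on dim probe sets, which kept 6555 probe sets for testing.

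The study measured total RNA from kidney on 55 1-colour Affymetrix arrays. Each sample is titled SHR kidney, all but 1 with a running number of its own, and described as Wistar-derived. SHR commonly stands for a rat strain with inherited high blood pressure. The descriptions name 13 arrays immature, 14 young and 14 mature, and a further 14 arrays carry no stage word. Age, sex, diet, treatment and pooling stand in none of the labels, and whether each array is a different rat is not stated, so the p-values measure only how these arrays spread. A second division used here is a measured level and not a label. X56596_at, annotated to RT1-Bb, a beta chain of the class II histocompatibility molecules, read above 600 on 12 arrays, 3 in each stage group, and below 600 on the other 43. No array lay near that limit, since the highest value below it was 263.0 and the lowest above it 1411.5. Values are the deposited intensities on a linear scale. Changes are differences of log2(intensity + 15.82), tested with limma in 1 model of the 4 stage groups over all 55 arrays, with Benjamini-Hochberg adjustment over the 6555 probe sets and a threshold of 0.05. A further RT1-Bb probe set, M36151cds_s_at, differed by 0.08 between arrays above and below 600 (adjusted p = 0.81, limma with stage in the model). The division is therefore one of X56596_at and not of every RT1-Bb probe set.

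Proximal tubule cells clear drugs, toxins and metabolites by taking them up from the blood across the basolateral membrane and releasing them into the tubular fluid across the apical membrane. OCT2 carries out the first step for organic cations such as creatinine and metformin. OAT1 does so for organic anions such as p-aminohippurate, in exchange for alpha-ketoglutarate that sodium-dicarboxylate cotransport returns to the cell. OAT2 was first described in rat liver and is also expressed in kidney. In rat kidney OCT2 and OAT1 are known to increase after birth, and OCT2 is known to be more abundant in males.

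The arrays fell into 3 sets by their control probe sets, called batches here although the labels name none and do not say what divides them. The first, batch 1, consisted of 6 immature and 4 mature arrays. The next, batch 2, took in 7 immature arrays, 6 young ones and 6 with no stage word. In batch 3 were 8 young, 10 mature and 8 with no stage word. The arrays with X56596_at above 600 lay in batch 1 (3 immature, 3 mature) and batch 2 (3 young, 3 without a stage word). Mature replicates 1 and 9 had GAPDH 3'/5' ratios of 7.18 and 3.47, a sign of degraded RNA. Mature replicates 12 and 5, both in batch 1, came next at 2.62 and 1.45. Their beta-actin 3'/5' ratios were 2.82 and 2.75, and they stayed in when replicates 1 and 9 were left out. Immature replicate 1 stood apart in Slc22a2 and in 1 probe set of Slc22a7. Of 23 proximal tubule markers measured, all but Gpx3 (0 on 2 mature arrays) were above 0 on all 55 arrays.

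Slc22a2 was the member with the widest gap between stages, and the gap lay between immature kidney and every later group. On the 13 immature arrays D83044_at read 584.2 at the lowest, 2355.2 at the median and 3078.7 at the highest. The 14 young arrays read 3548.7, 5180.45 and 5924.7 at the same points, and the 14 mature arrays 3950.4, 4873.25 and 7309.2. On the 14 arrays without a stage word the values were 3903.5, 5584.55 and 6371.6. All 42 later arrays lay above all 13 immature arrays, a separation found in that direction for 6 of the 6555 probe sets (0.0915%). The other 5 read the male-typical liver cytochrome Cyp2c11 (2 probe sets), the mannose-binding lectin Mbl1, the lactate dehydrogenase Ldhd, and in 1 case several genes. These genes were looked up after their values were seen.

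Slc22a2 averaged 12.30 ± 0.23 on the log2 scale in mature kidney (SD, n = 14) and 11.03 ± 0.63 in immature kidney (SD, n = 13). The log2 change was 1.27 ± 0.14 (SE), or 2.41-fold, with an adjusted p of 7.6e-10 in limma. At the threshold 10.3% of all probe sets were higher and 14.1% lower in mature than in immature kidney. Young kidney exceeded immature kidney by 1.22 ± 0.14 (adjusted p = 9.1e-09), and the group without a stage word exceeded it by 1.35 ± 0.14 (adjusted p = 1.4e-10). In those 2 contrasts 9.47% and 12.7% of all probe sets were called higher, and 9.21% and 14.4% lower. The SD was 0.63 in immature, 0.24 in young and 0.23 in mature kidney and 0.23 without a stage word, widest in the immature group, where it was 0.34 without immature replicate 1.

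Among the later groups Slc22a2 showed no step past the threshold. By mean log2 intensity the order was immature (11.03), young (12.25), mature (12.30) and no stage word (12.38), and only the first step exceeded the spread. The mature minus young difference was 0.05, with a 95% interval of -0.23 to 0.33, where 0.61% of probe sets were called higher and 1.19% lower. It turned to -0.12 inside batch 3 and to -0.01 without mature replicates 1 and 9. Within young kidney the level differed between batches. The 6 young arrays of batch 2 read 3548.7 to 4530.5 and the 8 of batch 3 read 5170.1 to 5924.7, with no overlap, as 5.02% of probe sets did in that direction.

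**Figure D1:**
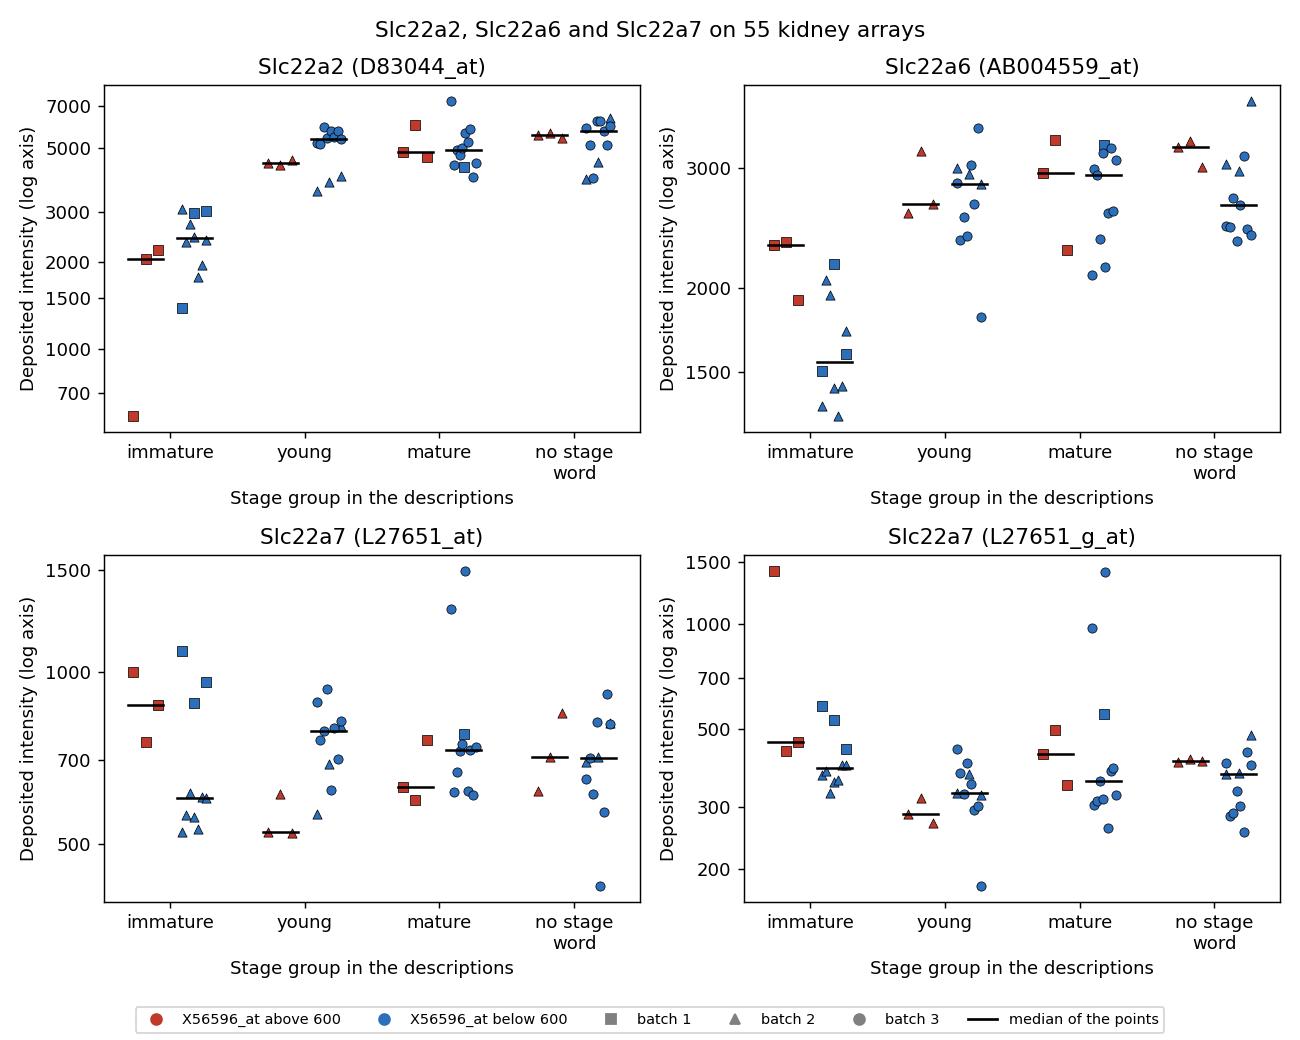
Deposited intensity (vertical log axis) of the 4 probe sets on 55 arrays by stage group, with arrays of X56596_at above 600 in red left of those below 600 in blue, marker shape for the batch, and black lines for the median of the points. All later arrays lie above all 13 immature arrays for Slc22a2, 38 of 42 do so for Slc22a6, and the groups overlap for both Slc22a7 probe sets.

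With batch as a block the mature minus immature change of Slc22a2 was 1.14 ± 0.16 (adjusted p = 7e-07, with 4.97% of probe sets called higher and 7.67% lower), and inside batches its direction was the same. In batch 2 the 6 young arrays had a median of 4171.45 and the 7 immature arrays a median of 2387.6, the lowest young array (3548.7) lying above the highest immature one (3078.7). The log2 change there was 0.79 ± 0.13 (adjusted p = 0.00012, limma inside batch 2, with 16.7% of probe sets called higher). Arrays without a stage word reached a median of 5486.6 in batch 2, a change of 1.13 ± 0.13 against immature (adjusted p = 8.8e-07). Such separation inside batch 2 held for 7.31% of probe sets in the first contrast and 7.92% in the second.

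Batch 1 is the set in which mature and immature kidney can be compared directly. Its 4 mature arrays read 4296.6 to 6016.3 and its 6 immature arrays 584.2 to 3008.2, without overlap (2.07% of probe sets). The change was 1.44 ± 0.40, but its adjusted p was 0.13 over all probe sets in limma inside batch 1. Without immature replicate 1 it was 1.13 ± 0.24 with an adjusted p of 0.080. In that set of 10 arrays 0.29% of all probe sets were called higher and 0.427% lower.

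The start of the Slc22a2 gene is shown because it is the member whose level differed most between stages and whose upstream sequence was at hand. RefSeq on assembly GRCr8 places the 250 bases before its start at chr1:50711020-50711269 on the minus strand. The capitals mark the 2 matches to the CCAAT box, which read as ATTGG on this strand, and they begin at positions -102 and -86 counted from the start.
Slc22a2, 250 bases upstream: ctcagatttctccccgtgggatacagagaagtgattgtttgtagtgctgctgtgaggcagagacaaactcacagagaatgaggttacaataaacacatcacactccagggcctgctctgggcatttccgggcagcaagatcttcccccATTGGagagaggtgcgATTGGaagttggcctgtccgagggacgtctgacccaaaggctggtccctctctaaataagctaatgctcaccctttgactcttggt
A CCAAT box on either strand was found in 34.0% of 33469 windows of the same length, so its presence does not set this window apart. The other 7 of the 8 motifs searched on both strands had no match here. They were the HNF1 palindrome, the HNF4 core CAAAGTCCA, the nuclear receptor half-site AGGTCA, the androgen receptor palindrome, the E-box CACGTG, the TATA box TATAAA and the AP-1 site TGANTCA. None of the 8 motifs contains another. The share of all windows that hold them was 0.00299%, 0.338%, 14.1%, 0.012%, 5.59%, 12.9% and 6.34% in that order.

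Slc22a6, the uptake carrier for p-aminohippurate, was also higher in every later group than in immature kidney, by a smaller amount. AB004559_at read 1294.5 at the lowest, 1729.2 at the median and 2337.6 at the highest on the 13 immature arrays. The 14 young arrays read 1808.7, 2752.9 and 3441.8, and the 14 mature arrays 2089.2, 2944.45 and 3302.0. Arrays without a stage word read 2343.0, 2844.4 and 3775.4. Of the 42 later arrays 38 lay above all immature arrays. The 4 that did not were young and mature arrays, whose groups overlapped with immature kidney, while the group without a stage word did not overlap it (0.656% of probe sets).

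For Slc22a6 the mean log2 intensity was 11.43 ± 0.23 in mature kidney (SD, n = 14) and 10.78 ± 0.30 in immature kidney (SD, n = 13). The change was 0.66 ± 0.10 (SE), or 1.58-fold (adjusted p = 1.5e-06, limma). Young kidney exceeded immature kidney by 0.63 ± 0.10 (adjusted p = 7.4e-06) and the group without a stage word by 0.69 ± 0.10 (adjusted p = 4.8e-07). In the mature, young and no stage word contrasts 10.3%, 9.47% and 12.7% of all probe sets were called higher. The order of the groups was the same as for Slc22a2, at 10.78, 11.41, 11.43 and 11.47, with the step from immature to young as the one past the threshold. The mature minus young difference was 0.02, with a 95% interval of -0.17 to 0.22.

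Inside batch 2 the Slc22a6 changes were larger than over all arrays. The 6 young arrays read 2580.4 to 3183.6 and the 7 immature arrays 1294.5 to 2053.5, a log2 change of 0.85 ± 0.11 (adjusted p = 1.2e-05). The 6 arrays without a stage word read 2973.4 to 3775.4, which is 1.02 ± 0.11 above the same immature arrays (adjusted p = 4.4e-07). Neither group overlapped immature kidney. Such separation held for 7.31% of probe sets in the young contrast and 7.92% in the no stage word contrast. Of all probe sets 16.7% and 19.7% were called higher in these 2 contrasts. Inside batch 1 the 4 mature arrays read 2277.6 to 3302.0 and the 6 immature arrays 1509.2 to 2337.6, which overlap. The 2277.6 was read on mature replicate 12, with a GAPDH ratio of 2.62, and the next mature value was 2952.0. The Slc22a6 change in batch 1 was 0.58 ± 0.19 with an adjusted p of 0.19.

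The summed intensity of 23 proximal tubule markers, out of 25 listed, had its lowest median in immature kidney. It ranged from 91923.4 to 143826.0 on immature arrays, from 129685.9 to 195632.5 on young arrays, from 83537.2 to 192239.1 on mature arrays and from 130056.7 to 187212.9 on arrays without a stage word. The medians were 121024.7, 161076.0, 166159.1 and 161431.3 in that order. Bright genes weigh most in such a sum, among them Gpx3, with medians of 16394.7 in immature and 27023.0 in mature kidney. The 2 arrays on which Gpx3 read 0 are mature ones. Its log2 change was -0.83 ± 0.73 (adjusted p = 0.42, limma), with an SD of 3.90 in mature and 0.42 in immature kidney. Slc34a1 is another bright gene, with medians of 15097.1 and 18357.4. By gene, 4 of the 23 markers rose and 3 fell in mature against immature kidney, where 10.3% of all probe sets rose and 14.1% fell. The median log2 change of the 23 was 0.13, against 0.04 over all probe sets. Neither the sums nor this median take batch into account. With batch as a block 3 of the 7 called markers kept their call. With the block Slc34a1 went from 0.16 to -0.39 (adjusted p = 0.10, limma) and Ggt1 from 0.77 to 0.59 (adjusted p = 0.013). In kidney tissue fewer cells of a type and less RNA per cell cannot be told apart, and the part of the tubule's share in the Slc22a2 and Slc22a6 changes was not tested.

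**Figure D2:**
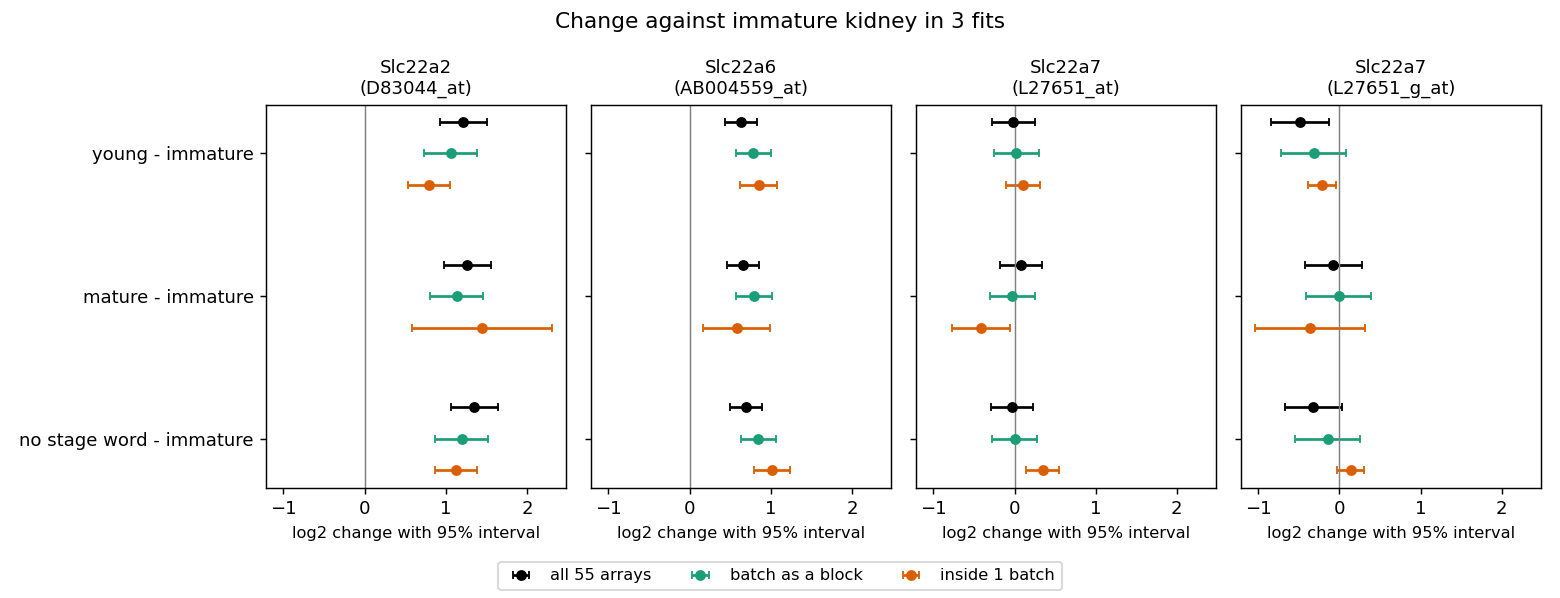
Log2 change against immature kidney (horizontal axis, with 95% intervals) for the 4 probe sets in the fit of all 55 arrays, the fit with batch as a block, and the fit inside 1 batch (batch 2 for young and no stage word, batch 1 for mature). All intervals for Slc22a2 and Slc22a6 lie above 0, while those of the 2 Slc22a7 probe sets lie on both sides of it.

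Slc22a7 showed no change in mature kidney against immature kidney that passed the threshold, in either of its probe sets. L27651_at read 524.9 at the lowest, 613.1 at the median and 1087.9 at the highest on immature arrays. It read 522.3, 732.0 and 930.4 on young arrays and 598.1, 727.25 and 1498.9 on mature arrays. On arrays without a stage word it read 423.2, 707.55 and 915.0. The 4 ranges overlap almost completely. The mature minus immature change was 0.08 ± 0.13 (95% interval -0.18 to 0.34, adjusted p = 0.66, limma). Whether it differs from the change of Slc22a6 was not tested. The young and the no stage word changes against immature were -0.01 and -0.03, with adjusted p of 0.96 and 0.88.

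The level of L27651_at moved with the batch within immature kidney. The 6 immature arrays of batch 1 read 752.6 to 1087.9 and the 7 of batch 2 read 524.9 to 613.1, with no overlap, as 10.3% of probe sets did in that direction. Inside batch 2 the 6 arrays without a stage word, at 618.0 to 848.1, all lay above the immature arrays. That is a log2 change of 0.35 ± 0.10 (adjusted p = 0.0080), where 19.7% of probe sets were called higher. Inside batch 1 the 4 mature arrays read 598.1 to 776.7 and overlapped the immature arrays, with a change of -0.41 ± 0.16 (adjusted p = 0.27). Each later group shares 1 batch with immature arrays, so between these values later group and batch cannot be told apart.

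The companion probe set L27651_g_at gave 1 call near the threshold, between young and immature kidney, which held under some settings and not under others. It read 328.5 at the lowest, 396.0 at the median and 1417.0 at the highest on immature arrays, and 178.9, 325.2 and 437.9 on young arrays. Mature arrays read 261.3, 368.95 and 1401.9, and arrays without a stage word 254.8, 386.35 and 481.5. Young kidney was lower than immature kidney by a log2 change of -0.49 ± 0.18 (adjusted p = 0.045, with 9.21% of probe sets called lower). Without immature replicate 1, which read 1417.0, the change was -0.36 and the adjusted p 0.12, and with batch as a block it was -0.31 with an adjusted p of 0.37 (4.38% of probe sets called lower). The call was kept under 6 of 12 alternatives, among them without mature replicates 1 and 9 (-0.49, adjusted p = 0.007) and without those and immature replicate 1 together (-0.35, adjusted p = 0.015). Mature kidney differed from immature kidney by -0.08 ± 0.18 (adjusted p = 0.78), and the group without a stage word by -0.32 ± 0.18 (adjusted p = 0.17).

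Inside batch 2 the 6 arrays without a stage word read 372.7 to 481.5 in L27651_g_at and the 6 young arrays 271.1 to 373.2, a change of 0.35 ± 0.08 (adjusted p = 0.0042), in a set where 8.83% of probe sets were called higher. Inside batch 3 the same contrast was 0.03 ± 0.26. The moderated F test over the 4 groups passed for Slc22a2 (adjusted p = 2.5e-11) and Slc22a6 (adjusted p = 2.2e-07), as it did for 28.5% of all probe sets. It did not pass for L27651_at (adjusted p = 0.85) or L27651_g_at (adjusted p = 0.081).

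The highest Slc22a7 values lay on a few arrays. The lowest lay on others, 423.2 in L27651_at on replicate 10 without a stage word and 178.9 in L27651_g_at on young replicate 12. Mature replicates 1 and 9, those with GAPDH ratios above 3, read 1282.8 and 1498.9 in L27651_at, the highest values of that probe set, and 971.4 and 1401.9 in L27651_g_at. They also held 2089.2 and 2147.0 in Slc22a6, the lowest of the mature group, and 7309.2 and 5657.8 in Slc22a2. Summed immune markers (6 genes) read 24504.4 and 23789.3 on the same 2 arrays, against a median of 11985.5 over mature arrays, and summed distal nephron and collecting duct markers (11 genes) read 22601.4 and 34321.4, against a median of 21014.3. Immature replicate 1 held the highest distal sum of its group, 30529.3, against a median of 21162.6. Summed proximal tubule markers (23 genes) read 172741.4 and 120818.6 on mature replicates 1 and 9, against a median of 166159.1 over mature arrays. On immature replicate 1 the proximal sum was 119617.1, against a median of 121024.7 over immature arrays. The part of RNA quality and of other cell types in these values was not tested. Over the 55 arrays the 2 Slc22a7 probe sets had a correlation of 0.66 after the mean of each batch was subtracted. It was 0.39 on the 53 arrays without mature replicates 1 and 9.

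No difference between arrays with X56596_at above and below 600 passed the threshold in the members once stage was in the model. The above minus below difference was -0.20 ± 0.12 for Slc22a2 (adjusted p = 0.34) and 0.18 ± 0.08 for Slc22a6 (95% interval 0.02 to 0.35, adjusted p = 0.17). It was -0.06 ± 0.11 for L27651_at (adjusted p = 0.78) and 0.16 ± 0.15 for L27651_g_at (adjusted p = 0.57). Of the 4, Slc22a6 alone had an unadjusted p under 0.05, at 0.030. In that model 3.74% of all probe sets were called higher and 5.42% lower. When the model also held batch, the Slc22a6 difference was 0.06, with a 95% interval of -0.15 to 0.27.

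The widest of these differences lay in immature kidney. There Slc22a2 read 584.2, 2055.6 and 2215.6 on the 3 arrays above 600, against 1387.1 to 3078.7 with a median of 2421.95 on the 10 arrays below. The groups overlapped, and 1 array was far below the others. The difference was -0.75 ± 0.23 (adjusted p = 0.059, limma with a mean for each stage group and class), and -0.13 without that array, immature replicate 1. In that contrast 1.14% of probe sets were called higher and 1.74% lower. Slc22a6 went the other way in immature kidney, at 1915.6, 2310.1 and 2337.6 on the arrays above 600 and 1294.5 to 2170.9 with a median of 1552.0 on those below, a difference of 0.42 ± 0.16 (adjusted p = 0.16). Inside batch 1 it was 0.33 ± 0.23, between 3 arrays above and 3 below 600. L27651_g_at in immature kidney averaged 9.40 above and 8.73 below 600 on the log2 scale. Its arrays above read 434.1, 461.3 and 1417.0, the last on immature replicate 1, and those below 328.5 to 582.1, which overlap. L27651_at averaged 9.79 above and 9.42 below, but 9.79 and 9.95 inside batch 1.

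In young kidney L27651_at read 522.3, 524.9 and 611.0 on the 3 arrays above 600 and 565.3 to 930.4 with a median of 787.4 on the 11 below. The difference of -0.44 ± 0.21 had an adjusted p of 0.34 (0.61% of probe sets called lower), and inside batch 2, with 3 arrays on each side, it was -0.29 ± 0.13. Slc22a2 was at -0.16 over all young arrays and at 0.23 ± 0.18 inside batch 2, where its 3 arrays above 600 (4355.7 to 4530.5) lay over the 3 below (3548.7 to 3987.2), as for 9.0% of probe sets. L27651_g_at lay wholly lower there, at 271.1 to 318.8 above 600 and 324.5 to 373.2 below, as for 8.12% of probe sets. Neither passed the threshold (adjusted p = 0.80 and 0.56). In mature kidney and in the group without a stage word the differences of the 4 probe sets lay between -0.24 and 0.22, and the smallest unadjusted p was 0.19.

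**Figure D3:**
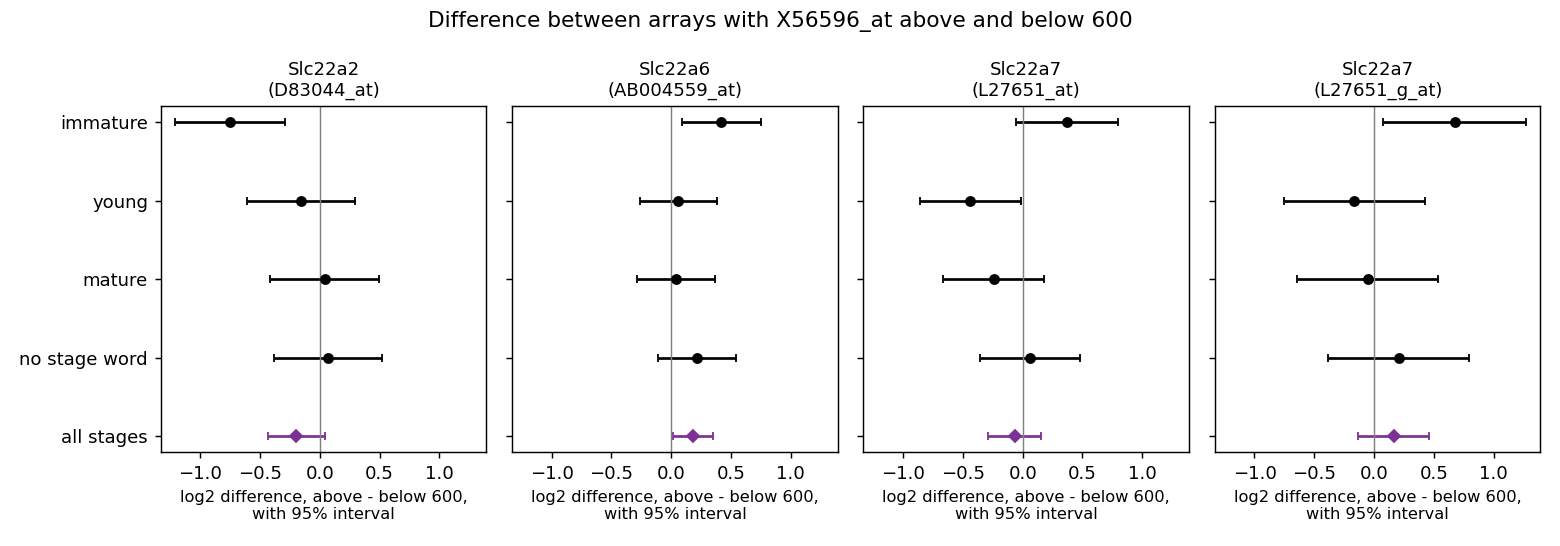
Log2 difference between arrays with X56596_at above and below 600 (horizontal axis, with 95% intervals) in each stage group (black circles) and over all stages (violet diamonds). The intervals over all stages include 0 except for Slc22a6, where it runs from 0.02 to 0.35, and the widest difference is the -0.75 of Slc22a2 in immature kidney.

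For Slc22a2 the stage change passed the threshold in both classes in the model of all 55 arrays. On arrays above 600 it read 4651.5, 4835.2 and 6016.3 in mature kidney against 584.2, 2055.6 and 2215.6 in immature kidney, a change of 1.87 ± 0.28 (adjusted p = 1.9e-05, with 1.59% of probe sets called higher). On arrays below 600 it read 3950.4 to 7309.2 in 11 mature and 1387.1 to 3078.7 in 10 immature arrays, a change of 1.09 ± 0.15 (adjusted p = 3.7e-07, with 14.2% of probe sets called higher). The 6 arrays above 600 all lie in batch 1, and inside that batch the change above 600 had an adjusted p of 0.12, and was 1.26 with an adjusted p of 0.19 without immature replicate 1. Neither pair of groups overlapped. Such separation held for 10.7% of probe sets above 600 and 0.458% below. The difference between the 2 changes was 0.79 ± 0.32 with an adjusted p of 0.20, and 0.18 without immature replicate 1. Such a difference passed upwards for 0.61% and downwards for 1.21% of probe sets.

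For Slc22a6 the change was 0.74 ± 0.11 below 600 (adjusted p = 8e-07), with 2089.2 to 3250.1 in mature and 1294.5 to 2170.9 in immature arrays. Above 600 it was 0.36 ± 0.20 (adjusted p = 0.44), with 2277.6, 2952.0 and 3302.0 in mature and 1915.6, 2310.1 and 2337.6 in immature arrays. The difference between the classes was -0.38 ± 0.23 (adjusted p = 0.40), so the 2 changes were not shown to differ. For L27651_at the change was -0.39 ± 0.26 above and 0.22 ± 0.14 below 600, for a difference of -0.61 ± 0.30 (adjusted p = 0.29). Over the 4 probe sets and the 6 pairs of stage groups, none of the 24 differences between classes passed the threshold, and 4 had an unadjusted p under 0.05.

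Slc22a2 and Slc22a6 were positively correlated over all arrays with stage not removed, while the correlations with Slc22a7 were near 0 or weakly negative. Over 55 arrays, with batch means subtracted, the correlation of Slc22a2 with Slc22a6 was 0.56, and it was 0.74 on the 52 arrays without immature replicate 1 and mature replicates 1 and 9. With L27651_at it was -0.015 for Slc22a2 and -0.09 for Slc22a6. With L27651_g_at it was -0.21 for Slc22a2 and -0.085 for Slc22a6, and the Slc22a2 value was -0.42 without mature replicates 1 and 9 and -0.04 without all 3 arrays. Both genes were lower in immature kidney, so these values hold the difference between stage groups. Whether the members vary together among arrays of 1 stage group was not tested.

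**Figure D4:**
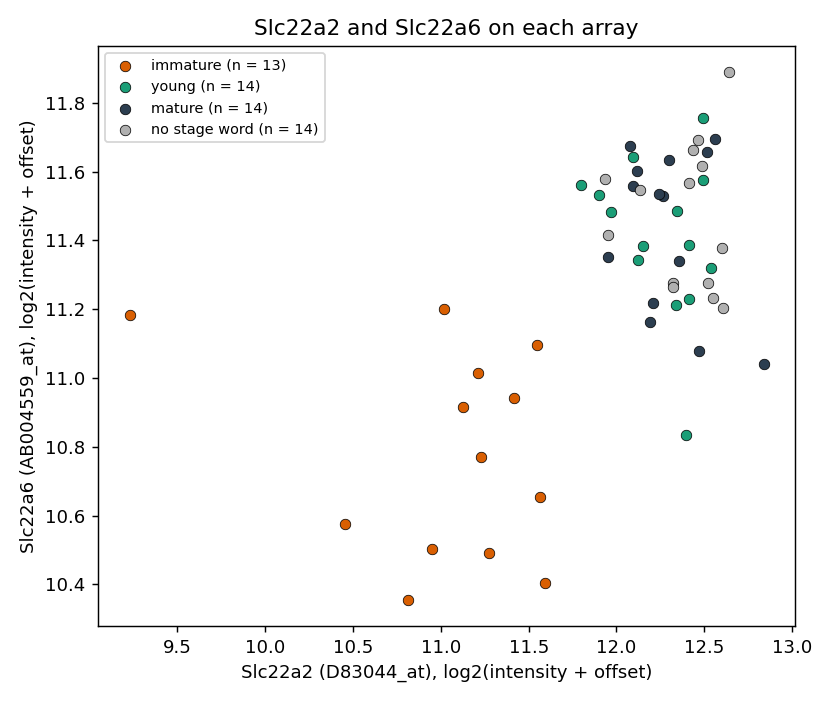
Log2(intensity + 15.82) of Slc22a6 (vertical axis) against Slc22a2 (horizontal axis) on 55 arrays, each point 1 array coloured by stage group. The 13 immature arrays lie apart at low Slc22a2, with immature replicate 1 far to the left, and the 3 later groups share 1 cloud.

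The genes whose pattern was most like each member were ranked by the same correlation over 3832 named genes and 55 arrays, as a description. For Slc22a2 they were Mbl1 (0.83), Cyp2c11 (0.80), the anticoagulant protein C gene Proc (0.80), the angiotensinogen gene Agt (0.79) and the guanylate cyclase subunit Gucy1b2 (0.79). For Slc22a6 they were the lysosomal protease Ctsb (0.81), Ldhd (0.78), Cyp2c11 (0.78), the ubiquitin-conjugating enzyme Cdc34 (0.76) and the RNA-binding protein Hdlbp (0.74). Stage was not removed before ranking, so that genes like Slc22a2 and Slc22a6 differ between stages follows from the choice, and their mature minus immature values, from 0.42 for Hdlbp to 4.82 for Cyp2c11, are a description. For Slc22a7, read by L27651_at, they were Pea15 (0.77), the lamin gene Lmna (0.72), cyclin E1 (Ccne1, 0.71), the lipase Lipe (0.69) and Tmem101 (0.68). On the 53 arrays without mature replicates 1 and 9 the same 5 values lay between 0.45 and 0.62.

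Of the other organic anion transporters 1 rose and 1 fell. Of 25 listed, 13 are named on the array and 10 were measured above the filter. In mature against immature kidney Slco1a1, a bile salt and steroid carrier, rose by 0.65 ± 0.25 (adjusted p = 0.049). Slc22a25, which RefSeq places 2 genes from Slc22a6 on chromosome 1, fell by 0.67 ± 0.22 on the log2 scale (adjusted p = 0.017). With batch as a block Slco1a1 stayed at 0.65 but missed the threshold (adjusted p = 0.12), and Slc22a25 was at -0.22 (adjusted p = 0.58). Without mature replicates 1 and 9 Slco1a1 was at 0.93 (adjusted p = 0.0013) and Slc22a25 at -0.37 (adjusted p = 0.10). The median log2 change of the 10 was -0.23, against 0.04 over all probe sets.

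Of 13 genes in the organic cation and carnitine list, 7 are on the array, 6 were measured and 3 rose, 2 of them nucleoside carriers. The carnitine carrier Slc22a5 (OCTN2) rose by 0.38 ± 0.10 (adjusted p = 0.0020), and it kept the call with batch as a block (adjusted p = 0.014). The nucleoside carriers Slc28a1 and Slc29a1 rose by 0.35 ± 0.11 (adjusted p = 0.013) and 0.34 ± 0.12 (adjusted p = 0.031). With the block Slc28a1 was at 0.10 (adjusted p = 0.59) and Slc29a1 at 0.32 (adjusted p = 0.11). None of the 6 fell, and their median was 0.30. Slc22a3, next to Slc22a2 on chromosome 1 in RefSeq, was below the filter.

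Among efflux pumps, which release conjugates and drugs, 9 of 15 listed were measured. Abcc3, a pump for glucuronide conjugates, rose by 0.40 ± 0.15 (adjusted p = 0.043) and Abcc9, the sulfonylurea receptor 2 subunit of ATP-sensitive potassium channels, by 0.60 ± 0.22 (adjusted p = 0.036). Abcc9 is in the pump family by sequence and is known as a channel regulator. A second Abcc9 probe set was at 0.29 with an adjusted p of 0.28. With batch as a block Abcc3 was at 0.09 (adjusted p = 0.75) and Abcc9 at 0.53 (adjusted p = 0.08). Without mature replicates 1 and 9 they were at 0.35 (adjusted p = 0.085) and 0.44 (adjusted p = 0.13). The median of the 9 was 0.40 without batch in the model, with changes from -0.17 to 0.69. With batch as a block the 9 changes ran from -0.43 to 0.53, and several rises turned to falls. Most of the 9 were dim, the dimmest with an immature median of 37.0 beside the offset of 15.82.

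Partners and regulators of the carriers included 3 rises and 1 fall among 13 of 22 listed. The dicarboxylate cotransporter Slc13a3, which feeds the OAT1 exchange, rose by 0.71 ± 0.14 (adjusted p = 8.1e-05). The nuclear receptor Hnf4a rose by 0.80 ± 0.17 (adjusted p = 0.00042), and a second of its 3 probe sets passed at 0.67 (adjusted p = 0.0023) while the third was at 0.46 (adjusted p = 0.064). The scaffold Pdzk1 rose by 0.48 ± 0.12 (adjusted p = 0.0034). The sulfate cotransporter Slc13a1 fell by 0.63 ± 0.14 on the log2 scale (adjusted p = 0.00064). With batch as a block the 3 rises kept their calls and Slc13a1 did not (adjusted p = 0.055), and the Slc13a3 change was 0.33 (adjusted p = 0.046). Over these 4 lists 11 of 38 measured genes were called, 9 of them higher, and in all probe sets 10.3% were higher and 14.1% lower.

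**Figure D5:**
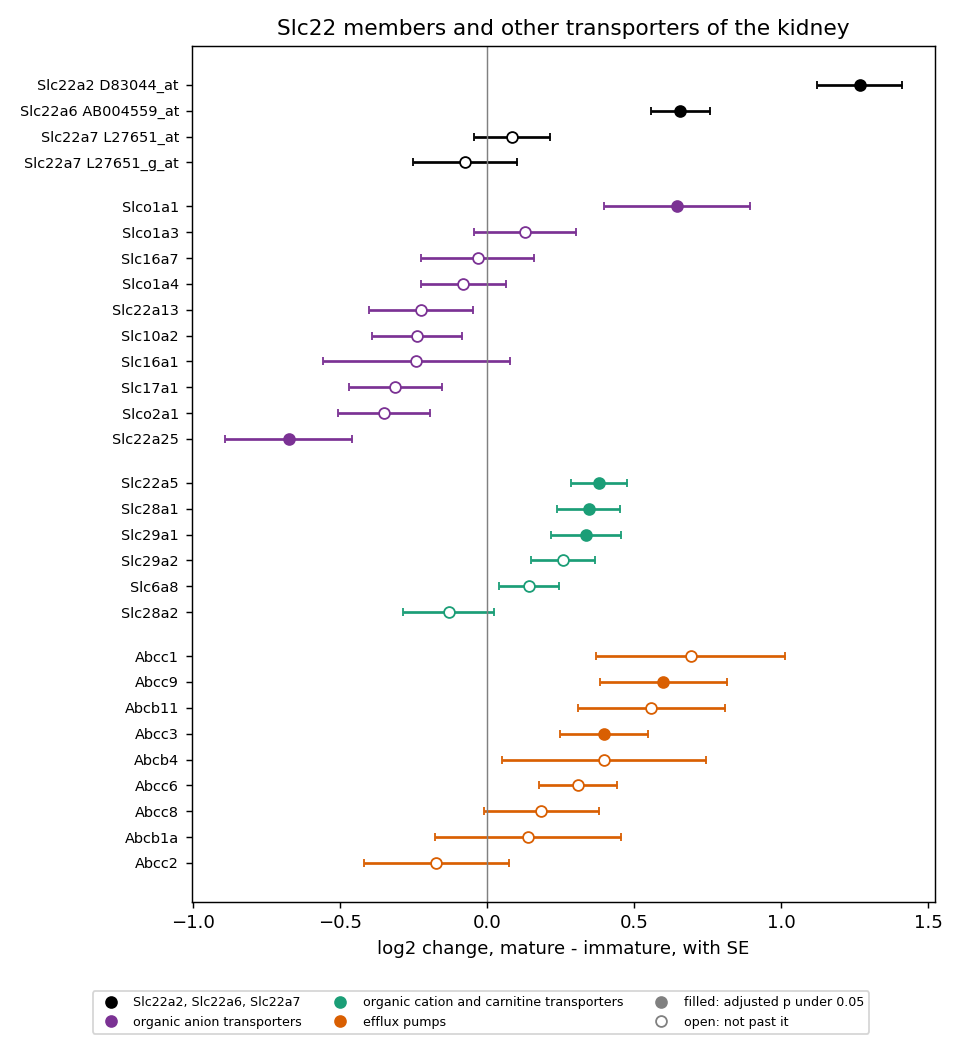
Log2 change of mature minus immature kidney with its SE (horizontal axis) for the 4 probe sets of Slc22a2, Slc22a6 and Slc22a7 and for the measured genes of 3 transporter lists, filled where the adjusted p is under 0.05. Slc22a2, at 1.27, lies to the right of all 25 listed transporters, and the organic anion list lies mostly left of 0.

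Markers of kidney segments moved in both directions. In the proximal tubule list the peptidase Ggt1 rose by 0.77 ± 0.16, the fructose carrier Slc2a5 by 0.51 ± 0.10 and the fatty acid hydroxylase Cyp4a8 by 0.41 ± 0.10, while the sodium-proton exchanger Slc9a3 fell by 0.84 ± 0.23 (adjusted p from 8.3e-05 to 0.0058). With batch as a block these named rises kept their calls. No fall in that list did, and Slc9a3 was at -0.38 (adjusted p = 0.23). In the thick ascending limb list 1 of 6 rose (Casr, 0.45 ± 0.16) and 1 fell (Slc12a1, -0.82 ± 0.17). In the distal nephron and collecting duct list 2 of 11 rose and 5 fell, among them the calcium-binding protein Calb1 (-1.01 ± 0.13), the FXYD protein Fxyd4 (-0.55 ± 0.11), the channel subunit Scnn1g (-0.52 ± 0.10) and the water channel Aqp3 (-0.58 ± 0.14). Of 8 glomerular and endothelial markers 2 rose (Flt1 and Synpo), and of 6 immune markers 1 rose (Cd4, 0.57 ± 0.13). None of 8 liver markers was called by limma in either direction, and 2 of them had an unadjusted p under 0.05. Of the 30 genes called among 100 measured over all 10 lists (19 higher, 11 lower), 14 were also called with batch as a block. All 30 kept their sign there, while Casr, Flt1 and Synpo were among those that missed the threshold (adjusted p = 0.27, 0.18 and 0.56). Of all probe sets 10.3% were called higher and 14.1% lower, and 4.97% and 7.67% with the block.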

How the data were processed

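Total RNA from kidney was measured on 55 1-colour arrays, and the deposited values are intensity values per probe set on a linear scale. The way the authors summarised probes and scaled arrays is not given in the sources used here. Their scaling was kept, since all arrays had a 2% trimmed mean of 500.2 to 500.7, and 0 pairs of arrays were identical. An offset of 15.82 (0.1 of the median) was added and log2 taken, which understates changes of dim probe sets. Of 8799 probe sets, 59 controls were left out of the tests and those with a mean log2 value under the 25th percentile were removed. The platform annotation names 1 gene for 7018 probe sets (6994 of them found in RefSeq), several for 308 and none for 1473.

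Tests used limma 3.58.1 (lmFit, eBayes, 2-sided) in R 4.3.3, in 1 model of the 4 stage groups, a model of stage group by X56596_at class, and an additive model of both. Batches were 3 Ward clusters of the arrays on 42 control probe sets, and are not taken from the labels. Named genes are the 3 members, called genes of the lists (all in the transporter lists, up to 4 by smallest p elsewhere) and 5 like genes for each member. The members, lists, tests and alternatives were chosen with earlier results of these data known, so counts over the lists are descriptions. Alternatives changed the offset, filter, scaling, batch, class, array weights and arrays used. The fits were tested on simulated data. An upstream sequence was at hand for 2 of the 3 genes, and not for Slc22a6. Figures were drawn with matplotlib 3.10.9. The number of arrays limits the precision, and signal over background was not analysed here.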

Additional observations from a re-analysis of the deposited data

Results flagged for a closer look

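In a test for 1 value far from its group, run on 36 groups of 4 to 10 arrays formed by probe set, stage group, and batch or X56596_at class, 3 values stood apart. Chance flags about 1 in 20 such groups. L27651_g_at of Slc22a7 read 1417.0 on immature replicate 1 in batch 1, where the other 5 immature arrays read 434.1 to 582.1. The same array held the lowest Slc22a2 value of all, 584.2. Slc22a2 read 3943.1 on replicate 6 without a stage word in batch 3, where the others read 5106.4 to 6209.9, and it still lay above all immature arrays. L27651_g_at read 178.9 on young replicate 12 in batch 3, where the others read 294.4 to 437.9.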

How the results depend on the processing

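No paired analysis was possible because the running numbers in the titles do not repeat across groups, and the replicate numbers used here only name arrays in accession order. The batches were found in the data, and comparisons inside a batch, without immature replicate 1 and mature replicates 1 and 9 together, and with batch as a block without those 2 mature arrays were chosen after seeing the data. The limits are that batch 1 alone holds both immature and mature arrays, that X56596_at class and batch overlap, and that 3 arrays a stage group lie above 600. Where a value below changes sign, the cause was not tested.

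The mature minus immature changes of Slc22a2 and Slc22a6 kept their direction and call under 11 of 13 alternatives each, from 1.06 to 1.44 and from 0.58 to 0.83. The calls were lost inside batch 1 (1.444 and 0.58) and there without immature replicate 1 (1.126 and 0.629), where fewer arrays enter. Leaving out each array in turn gave 1.116 to 1.314 and 0.621 to 0.692. On arrays above 600 the Slc22a2 change was 1.874 inside batch 1 (adjusted p = 0.12) and 1.26 there without immature replicate 1 (adjusted p = 0.19).

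Small differences among later groups changed sign. Mature minus young for Slc22a2 was -0.009 without mature replicates 1 and 9, with or without immature replicate 1, and -0.118 inside batch 3. No stage word minus young inside batch 3 was -0.01 for Slc22a2 and -0.017 for Slc22a6. Mature minus young for Slc22a6 was -0.021 to 0.054 with each array left out. Mature minus no stage word for Slc22a6 was 0.025 without the 2 arrays and without all 3, 0.046 with array weights, 0.067 inside batch 3 and 0.001 with the block and without the 2.

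L27651_at of Slc22a7 had no settled direction. Mature minus immature was -0.027 with batch as a block, -0.06 without the 2 arrays, -0.02 without the 3, -0.14 with the block and without the 2, -0.413 inside batch 1 and -0.39 there without immature replicate 1. Young minus immature was 0.023 with the block, 0.078 with batch and class, 0.192 with array weights, 0.101 inside batch 2, 0.027 without the 3, 0.085 with the block and without the 2, and -0.048 to 0.037 with each array left out. No stage word minus immature was 0.004, 0.059, 0.142, 0.347, 0.008 and 0.066 under the same settings, and -0.068 to 0.022 with each array left out. Mature minus young was -0.05 with the block, -0.056 with batch and class, -0.047 without the 2 or the 3, -0.023 with array weights and -0.225 with the block and without the 2. Mature minus no stage word was -0.031, -0.037, -0.028 and -0.206 under those settings other than array weights. No stage word minus young was 0.246 inside batch 2, and -0.052 to 0.034 with each array left out. Above minus below 600 in immature kidney was -0.157 inside batch 1 and -0.255 there without replicate 1.

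For L27651_g_at the young minus immature call was kept under 6 of 12 alternatives (adjusted p = 0.007 without the 2 arrays, 0.015 without the 3, 0.043 with class as a term, 0.042 with quantile normalization and 0.046 with either offset). It was lost without the filter (-0.488), with batch as a block (-0.314), with batch and class (-0.324), with array weights (-0.213), inside batch 2 (-0.214) and with the block and without the 2 arrays (-0.212). With each array left out it ran from -0.526 to -0.355, and past the threshold in 12 of 27. Mature minus immature ran from -0.204 to 0.058 with each array left out, positive without immature replicate 1. On arrays below 600 it was -0.219 without the 2 arrays and -0.075 to 0.161 with each array left out. No stage word inside batch 2 was 0.137 above immature and 0.351 above young. Mature minus no stage word was -0.03 with array weights and -0.154 with the block and without the 2. In immature kidney above minus below 600 was 0.673 without the 2 arrays (adjusted p = 0.049) and -0.194 inside batch 1 without replicate 1. The same difference for Slc22a2 passed at -0.748 without the 2 arrays and at -0.758 with quantile normalization, and ran from -1.082 to -0.135 with each array left out, past the threshold in 3 of 13.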
